A study of Mus musculus with 468 samples.

Results

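The transcripts of 6 mast cell genes, among 23180 genes in the table of counts, were followed through the adipose tissue of all Diversity Outbred (DO) mice of the series, each of which gave 1 library. They were chosen by symbol: Cpa3, Mcpt4, Cma1, Tpsb2, Ms4a2 and Kit. The table held 6 of these 6 genes, and 6 of 6 passed the filter on low counts that left 18380 genes (at least 10 counts in at least 50% of libraries). DO mice descend from several inbred founder strains whose genomes have been shuffled, and practically no animals share a genotype. The diet of all mice was high in fat and sugar (45 percent fat per the labels). The labels give no age, sex, generation or batch, and the methods of the study give 1 age at harvest for all mice, both sexes and several generations. The libraries therefore form 1 group, with no untreated group. Each carries the number of its mouse, from DO021 to DO560, and a separate library number. Total expected counts per library, in units of 1000000, ran from 35.3 to 137.8 (median 82.04). SDs and correlations are over all mice unless stated otherwise. Each mouse gave a single library, so spread between mice and assay error cannot be told apart. The summed level of 5 adipocyte markers (Adipoq, Plin1, Fabp4, Lep and Cidec) was between 6394 and 24153 CPM (counts scaled to a total of 1000000), and that of the 6 mast cell genes between 14.3 and 244.8 CPM. The libraries of mice DO088, DO032 and DO069 stood apart in genes that matter here, as given below, and several results are also given without them.

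Mast cells are tissue-resident immune cells filled with granules of proteases, histamine and heparin, and are best known for their response to IgE. Stem cell factor, the product of Kitl, keeps them alive through the receptor tyrosine kinase that Kit encodes. In adipose tissue they lie in the connective tissue and around vessels. In bulk tissue, fewer mast cells and less RNA per mast cell cannot be told apart.

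The members fall into a granule group and a receptor group. Cpa3 encodes carboxypeptidase A3, a granule exopeptidase. Mcpt4 and Cma1 encode chymases, and Tpsb2 encodes a tryptase. Ms4a2 encodes the beta chain of the high-affinity IgE receptor. Kit is also known from other cells, among them germ cells, melanocytes and blood progenitors, whereas the other members are largely restricted to mast cells and, in part, basophils.

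The proximal promoters are shown because 5 of the members varied together across the mice, as described further on. The sequences come from RefSeq (GRCm38.p6). Each stretch is 120 bases long, is given 5′ to 3′ on the strand of the gene and ends at the last base outside the gene's span in the files. Capitals mark matches on either strand to the GATA motif AGATAA, the motif AGATAG, the motif TGATAA and the motif TGATAG, which are letters bound by the GATA factors of blood cells. The stretch for Cpa3 is chr3:20242182-20242301 on the minus strand, that for Mcpt4 chr14:56062314-56062433 (minus), that for Cma1 chr14:55944676-55944795 (minus), that for Ms4a2 chr19:11623720-11623839 (minus) and that for Kit chr5:75574796-75574915 (plus). Tpsb2 had no entry in the promoter table used.
Cpa3: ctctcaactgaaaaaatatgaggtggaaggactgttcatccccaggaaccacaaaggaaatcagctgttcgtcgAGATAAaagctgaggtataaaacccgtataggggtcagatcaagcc
Mcpt4: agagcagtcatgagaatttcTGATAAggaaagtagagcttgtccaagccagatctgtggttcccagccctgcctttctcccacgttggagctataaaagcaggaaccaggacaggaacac
Cma1: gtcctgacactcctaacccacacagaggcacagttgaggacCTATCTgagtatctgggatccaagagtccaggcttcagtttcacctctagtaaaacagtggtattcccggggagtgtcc
Ms4a2: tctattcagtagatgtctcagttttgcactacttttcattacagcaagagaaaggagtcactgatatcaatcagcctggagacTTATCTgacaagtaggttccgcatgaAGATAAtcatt
Kit: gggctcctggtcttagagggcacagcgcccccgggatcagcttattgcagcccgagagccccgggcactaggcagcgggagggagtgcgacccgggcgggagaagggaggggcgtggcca

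Motifs were counted in the 250 bases before the RefSeq start. Ms4a2 held 3 GATA motifs there, and Cpa3, Mcpt4 and Cma1 held 1 each. Kit held 0. Of the 27025 promoters in the table, 27.1% held at least 1 of the 4 motifs. The E-box letters CACATG and CACGTG, which the factor encoded by Mitf binds, were in 0 of the 5 promoters and in 17.6% of all promoters. A match says only that the letters are present.

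Cpa3 (ENSMUSG00000001865, chromosome 3, 20215620 to 20242181, minus strand, GRCm38) had 0.558 CPM in the lowest mouse, 5.86 in the median mouse and 64.7 in the highest. Its mean was 6.83 ± 5.09 CPM (SD over all mice), and the 95th percentile lay 8.43-fold above the 5th. Mcpt4 (ENSMUSG00000061068, chromosome 14, 56059629 to 56062313, minus strand) had 0.495, 5.82 and 41.1 CPM in the lowest, median and highest mouse, with a mean of 7.06 ± 5.02. These carboxypeptidase and chymase transcripts thus had similar CPM and a similar spread.

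Cma1 (ENSMUSG00000022225, chromosome 14, 55941451 to 55944675, minus strand) ran from 0.605 over 4.78 to 43.1 CPM, with a mean of 5.31 ± 3.70. Tpsb2 (ENSMUSG00000033825, chromosome 17, 25366305 to 25369098, plus strand) ran from 0.357 CPM over 5.45 to a highest value 10.5-fold the median, with a mean of 6.09 ± 4.38. In all 4 protease genes the highest mouse was DO088, and in Cpa3, Cma1 and Tpsb2 the lowest was DO518.

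Ms4a2 (ENSMUSG00000024680, chromosome 19, 11615523 to 11623719, minus strand) was the least abundant member, from 0 over 0.369 to 3.51 CPM with a mean of 0.433 ± 0.314. The median library had 30 counts of it, for which counting alone gives a CV of 18.3%, against 4.60% for Cpa3. In 3 libraries it had no count. In those of mice DO222, DO283 and DO468 a floor of 3 counts corresponds to 0.0630, 0.0910 and 0.0390 CPM. Its IgE receptor chain was therefore not detected at that depth in these mice, rather than absent.

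Kit (ENSMUSG00000005672, chromosome 5, 75574916 to 75656722, plus strand) was the member with the most counts and the narrowest spread, from 8.24 over 19.3 to 76.1 CPM with a mean of 20.3 ± 6.52. Its 95th percentile was 2.58-fold above its 5th, against 7.84-fold to 12.8-fold for the other members. The biological coefficient of variation from edgeR is the spread between libraries beyond counting error, from mice and assay together. It was 0.292 for Kit and 0.605 to 0.667 for the others. Over all 18380 genes its median was 0.311, so Kit was near the middle of all genes (percentile 47.5) and the other 5 were between percentiles 78.5 and 82.02.

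**Figure D1:**
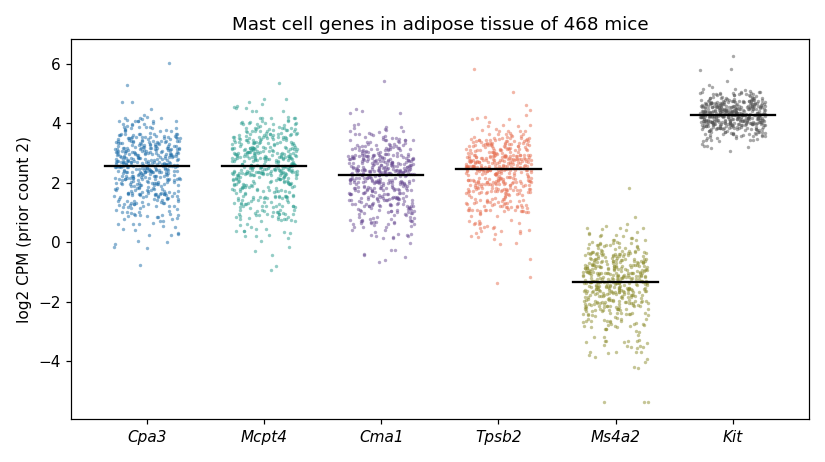
Level of each mast cell gene (x axis) in log2 CPM with a prior count of 2 (y axis), 1 point per mouse and a black line at the median of all mice. The 4 protease genes and Ms4a2 spread widely with SDs of 0.92 to 1.03 log2 units, whereas Kit had an SD of 0.42.

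Levels between genes can be compared only per length of transcript. Divided by the bases covered by exons, from 1090 for Cma1 to 8911 for Kit, the median level was 5.26 CPM per kilobase for Mcpt4. It was 4.38 for Cma1, 3.86 for Cpa3, 3.42 for Tpsb2, 2.17 for Kit and 0.131 for Ms4a2. Neighbours in this order overlapped in all cases but the last. Mcpt4 was above Cma1 in 79.3% of mice, Cma1 above Cpa3 in 63.5%, Cpa3 above Tpsb2 in 72.9% and Tpsb2 above Kit in 73.9%. Kit was above Ms4a2 in every mouse.

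Shared reads bear on these counts to different degrees. The span of Cpa3 overlaps the small annotated gene Mir7007 on the same strand, and no annotated gene overlaps the spans of the other 5. In the annotated transcripts, 0 of the stretches of 100 bases (the read length) of Cpa3, Cma1, Tpsb2 and Kit occur in another gene. For Mcpt4, 1 of 1009 such stretches occurs in Cma2, and for Ms4a2, 13 of 3203 occur in Ms4a4b. Their expected counts were whole numbers in 75.2% and 82.5% of libraries, against 100.0% for each of the other 4. These shares hold for the reference strain's transcripts, and the founder strains were not searched.

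The 4 protease genes rose and fell together from mouse to mouse. In log2 CPM over all mice, Pearson's r was 0.934 between Cpa3 and Cma1 (Spearman's rho 0.928), 0.928 between Cma1 and Tpsb2 (rho 0.920) and 0.912 between Cpa3 and Tpsb2 (rho 0.896). Mcpt4 had r between 0.870 and 0.876 with the other proteases. Each of the 4 had the other 3 as its closest partners, at ranks 1 to 3 among 18379 genes. Ms4a2 followed them less closely, with r = 0.645 for Tpsb2, 0.623 for Cpa3, 0.607 for Cma1 and 0.600 for Mcpt4. Two-sided permutation tests of 100000 resamples gave p = 1e-05 for all 10 of these relations, which is the smallest value they can give (2.92e-05 after Benjamini-Hochberg adjustment over all relations computed here). The low counts of Ms4a2 carry more counting error than those of the proteases.

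Kit had no detectable linear relation with the other members under TMM scaling. Its r was -0.0332 with Cpa3 (p = 0.475), -0.0525 with Mcpt4 (p = 0.256), -0.0607 with Cma1 (p = 0.189), -0.0284 with Tpsb2 (p = 0.54) and 0.044 with Ms4a2 (p = 0.343), by the same permutation tests with adjusted values from 0.242 to 0.61. With totals scaled by total count alone in place of TMM, r was between 0.0489 and 0.182 for these 5 pairs, and passed the threshold for Tpsb2 (0.113, permutation p = 0.0144) and Ms4a2 (0.182, permutation p = 0.00012). Among 18379 genes Cma1 stood at rank 12893 of Kit's partners and Ms4a2 at rank 7545. The first principal component of the 6 genes held 69.7% of their variance, and had r = 0.741 to 0.962 with the other members but -0.042 with Kit. Without Kit, the first component of the remaining 5 genes held 83.6%.

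**Figure D2:**
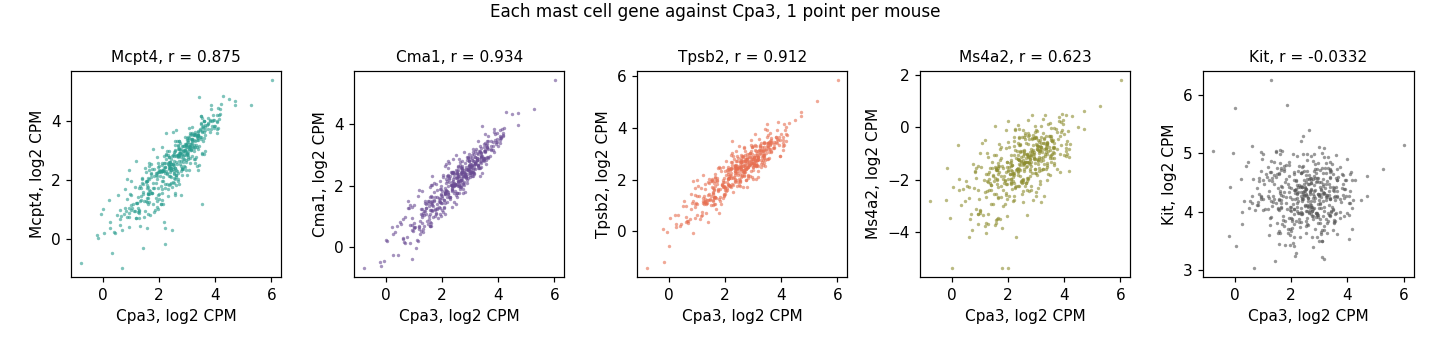
Each of the other mast cell genes (y axes) against Cpa3 (x axes), both in log2 CPM, 1 point per mouse, with Pearson's r over all mice in the titles. Points of Mcpt4, Cma1 and Tpsb2 lie along a narrow diagonal (r = 0.875, 0.934 and 0.912), those of Ms4a2 along a wider one (0.623), and those of Kit show none (-0.0332).

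These relations were recomputed within blocks of 93 or 94 libraries with consecutive mouse or library numbers, which stand in for batches the labels do not name. The r of Cpa3 and Cma1 was between 0.925 and 0.942 in the 5 mouse-number blocks and between 0.912 and 0.953 in the 5 library-number blocks. That of Ms4a2 and Cpa3 was between 0.542 and 0.737 in the former. The r of Kit and Cpa3 was above 0 in 1 of 5 and in 2 of 5 blocks, with a range of -0.14 to 0.0905. Without the 2 libraries farthest from the median of Cpa3 (DO088 and DO518), r was 0.931 for Cma1, 0.612 for Ms4a2 and -0.0378 for Kit.

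Counts of Y chromosome genes were 0 in 48.5% of libraries and above 0 in 51.5%. The study lists as many females for adipose tissue as there were libraries without these counts, and as many males as with them. These clusters thus match the sexes in size, though the labels give no sex for single libraries. For the DO mice, the study's tests had sex, generation and wave as covariates. Values over all mice pool both clusters here and were not adjusted for sex unless stated, nor for generation or wave. The relations were also computed inside these clusters, which was decided once the data had been looked at. The r of Cpa3 and Cma1 was 0.928 and 0.931, and that of Cpa3 and Ms4a2 was 0.684 and 0.671. For Kit the values had opposite signs. Its r with Cpa3, Mcpt4, Cma1 and Tpsb2 was between -0.181 and -0.135 where Y chromosome counts were 0, and between 0.0761 and 0.129 where they were above 0. The former passed the threshold for all 4 (permutation p from 0.00585 to 0.0411) and the latter for Cpa3 alone (permutation p = 0.0452). The difference between the clusters was not tested.

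The ratio between members shows how tight the coupling was. The log2 difference between Cpa3 and Cma1 had an SD of 0.342 over mice, so that the 95th percentile of the ratio was 2.21-fold above the 5th, while Cpa3 itself spanned 8.43-fold. For Cma1 and Tpsb2 the SD was 0.350. For the chymases Mcpt4 and Cma1 it was 0.511, with a tail on 1 side: Mcpt4 was below Cma1 in 92 mice, and by more than 1 log2 unit in 8, down to -2.97. For Cpa3 and Kit the SD was 1.05, more than that of either gene alone (0.954 and 0.419).

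The ends of the distribution restate this with the same values. Of the 47 libraries highest in a gene, 23 were among the highest 47 of all 4 protease genes, and 12 of these were also among those of Ms4a2. Cpa3 and Kit shared 2 of their highest 47. At the low end 26 libraries were among the lowest 47 of all 4 protease genes, and Cpa3 and Kit shared 3.

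The single mice at the extremes differ for Kit and the rest. DO088 was the highest of all mice in Cpa3, Mcpt4, Cma1, Tpsb2 and Ms4a2, with 64.7 CPM of Cpa3, 11.04-fold the median, and was at rank 7 in Kit with 35.5 CPM. Its Adgre1, the macrophage gene for F4/80, was at 565.7 CPM (rank 2) against a median of 47.5. DO200 had rank 2 in Cpa3, Cma1, Tpsb2 and Ms4a2 and rank 3 in Adgre1 with 390 CPM. DO518, lowest in 3 of the proteases, was at rank 13 in Kit with 32.8 CPM.

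Kit was highest in DO032 (76.1 CPM), DO069 (56.7 CPM) and DO222 (54.9 CPM). In these mice Cpa3 was below its median, at 2.44, 3.61 and 0.988 CPM. Markers of other cells were looked up. Over all mice, the summed level of 4 melanocyte markers had a median of 1.90 CPM and a highest value of 10.1 CPM. That of 4 epithelial markers had a median of 10.03 CPM and a highest value of 317.8 CPM. Among the mice highest in Kit, single markers are given here for DO032 and DO069 only. In DO032 and DO069, Gdf9, a growth factor of oocytes, was at 28.4 and 17.2 CPM against a median of 0.480, and Inha, which encodes the inhibin alpha subunit of gonadal cells, was at 337.8 and 483.2 CPM against 0.544. Gdf9 is the 1 of 5 oocyte markers in the table. Inha was chosen after its values were seen. Their part in the Kit values was not tested. Without these 2 libraries the r of Kit with Cpa3 was -0.0163 (permutation p = 0.727).

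A wider list of 30 mast cell genes put the members in context. Of these, 27 were in the table and 25 passed the filter, with Ctsg and Gata1 below it, and Mcpt1, Mcpt2 and Cma2 were not analysed here. Against the mean of the z-scored log2 CPM of the 5 members without Kit, the genes with the highest r were Mrgprb1 (0.870), Mrgprb2 (0.810), Mrgprx2 (0.786) and Fcer1a (0.782). Mrgprb2 encodes the receptor through which peptides and drugs activate mouse mast cells without IgE, Mrgprb1 and Mrgprx2 are its relatives, and Fcer1a encodes the IgE-binding chain that joins the Ms4a2 product in the same receptor. Tpsg1, a membrane-bound tryptase, followed at 0.690. Next were Tph1, the serotonin-producing hydroxylase (0.507), Tpsab1, another tryptase (0.491), Slc6a4, the serotonin transporter (0.487), Slc18a2, which loads amines into vesicles (0.456), and Cyp11a1, a steroidogenic enzyme (0.414). Mrgprx2, Slc6a4 and Cyp11a1 were not on the list and stand here by rank alone. Kit was at rank 11151 of this order (r = -0.0287).

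Other genes of mast cell function had a lower r. The common gamma chain Fcer1g had r = 0.0516 with that mean, and the kinases Syk, Btk and Lyn had 0.0588, 0.0661 and -0.0403. Srgn, which encodes the proteoglycan core of the granule, had 0.101, and Ndst2, an enzyme that sulfates heparin, 0.236. Hdc, which makes histamine, had 0.267, and Adora3, an adenosine receptor, 0.262. The eicosanoid genes Hpgds, Alox5 and Ltc4s were at 0.0449, 0.0579 and -0.0249. Of the factors, Gata2 was at 0.199 and Mitf at 0.131, and Il1rl1, the receptor for interleukin 33, was at 0.387 and at rank 23 of all genes. In Kit, the 5 genes with the highest r were Angpt2 (0.460), Ets2 (0.433), Nos2 (0.428), Trp53i11 (0.427) and Smad1 (0.409), and no other member or gene of the wider list was among them.

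**Figure D3:**
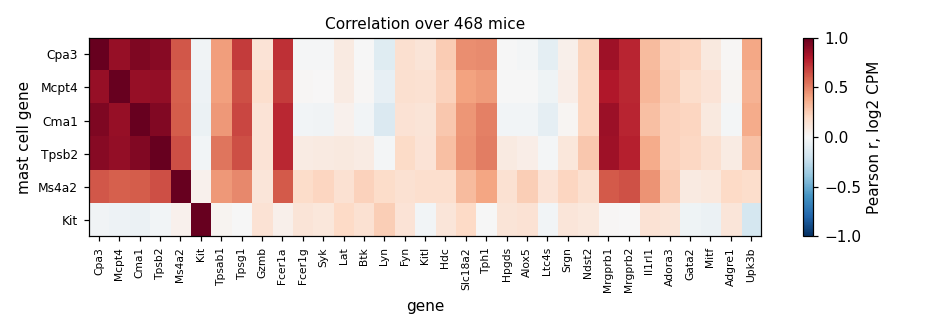
Pearson's r of log2 CPM over all mice between each of the 6 mast cell genes (rows) and the members, the 25 genes of the wider list past the filter, Adgre1 and Upk3b (columns), from -1 (blue) to 1 (red). The 5 upper rows share dark columns at Cpa3, Mcpt4, Cma1, Tpsb2, Fcer1a, Mrgprb1 and Mrgprb2. The column of the protease Gzmb is pale, and the Kit row is pale throughout apart from Kit itself.

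The tryptase Tpsab1 had r = 0.538 with Tpsb2, at rank 10 of its 18379 partners, and a wider spread. Its median was 1.75 CPM and its mean 2.70 ± 3.69 CPM. The log2 difference between these tryptases had an SD of 1.35 and ran from -6.67 to 1.99, and the 95th percentile of their ratio was 18.6-fold above the 5th. Tpsab1 was above Tpsb2 in 42 mice and more than 3 log2 units below it in 78. In the highest mouse DO088, Tpsab1 was at 59.4 CPM, about level with Tpsb2.

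The first question put to the order of the mice was whether the members drift with mouse number. Cpa3 had a median of 6.41 CPM in the 94 mice with the lowest numbers and 5.21 in the 93 with the highest. Kit had 19.4 and 19.4 CPM in the same blocks. Single mice varied widely within these blocks, with SDs of 6.99 and 3.84 CPM for Cpa3 and of 8.80 and 5.19 for Kit. Such SDs do not measure the error of a block median, and drift was tested on slopes. In the quasi-likelihood test of edgeR fitted to all 18380 genes, 23.3% of genes changed with mouse number at an adjusted p under 0.05, and 0 of the 6 members did. At an unadjusted p under 0.05 the count was also 0 of 6, and it was 0 of 6 with DESeq2 and with limma.

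The fitted slope per 100 mouse numbers was -0.04 ± 0.028 for Cpa3 (SE, log2, adjusted p = 0.248 in edgeR) and 0.02 ± 0.030 for Ms4a2 (adjusted p = 0.645). It was -0.02 for Mcpt4 and Cma1, -0.0036 for Tpsb2 and -0.0068 for Kit. The 95% intervals reached at most from -0.10 to 0.08, which bounds a drift of these transcripts at this number of mice. Of the 25 genes of the wider list, 7 were called for mouse number, a share close to the 23.3% called over all genes. Slopes were positive for Fcer1g, Btk, Alox5, Ltc4s and Srgn and negative for Kitl and Slc18a2. The median slope of the list was 0.03 against -0.0011 over all genes. Slc18a2 had the steepest of these slopes at -0.15 ± 0.021 (adjusted p = 6.04e-10 in edgeR). The mice DO032 and DO069 had 77.5 and 73.8 CPM of it against a median of 2.40, and without them its slope was -0.02 (adjusted p = 0.275 in edgeR), so that its call rests on these libraries.

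Library number gave no called member either. Across all genes 0.31% were called by edgeR, and 0 of 6 members (0 of 6 also unadjusted), with slopes per 100 library numbers between -0.01 and 0.02 and adjusted p from 0.795 to 0.975. Of the wider list 1 gene was called, Slc18a2, with 0.11 ± 0.025 (adjusted p = 0.0143), which was 0.00091 without DO032 and DO069 (adjusted p = 0.991).

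The members were next set against Upk3b, a uroplakin of the mesothelium, the cell sheet that covers visceral fat. In the edgeR fit 27.7% of all genes rose and 34.3% fell with Upk3b. All 6 members passed, with 5 rising and Kit falling. Cpa3 rose by 0.43 ± 0.058 log2 units per log2 unit of Upk3b (adjusted p = 4.61e-12), Mcpt4 by 0.43 ± 0.061 (7.99e-11) and Cma1 by 0.41 ± 0.055 (8.2e-12). Tpsb2 rose by 0.27 ± 0.057 (7.53e-06) and Ms4a2 by 0.18 ± 0.064 (0.0111). Kit fell by 0.11 ± 0.027 (0.000102). The wider list was split, with 6 of 25 genes rising and 12 falling and a median slope of -0.09, against -0.0063 over all genes. Those that rose were Tpsg1 (0.46), Mrgprb1 (0.36), Mrgprb2 (0.28), Fcer1a (0.25), Tph1 and Kitl. Among those that fell were Fcer1g (-0.45), Tpsab1 (-0.30), Gata2 (-0.14) and Hdc (-0.13). In log2 CPM, Pearson's r with Upk3b was -0.296 for Fcer1g, -0.0418 for Tpsab1 and -0.0864 for Hdc. For Gata2 it was 0.0705, opposite in sign to its slope. Slc18a2, which was not called, had a slope of -0.01 but r = 0.186.

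The scatter around these slopes was wide. Pearson's r with Upk3b was 0.387 for Cpa3, 0.368 for Cma1, 0.347 for Mcpt4 and 0.292 for Tpsb2, each with a permutation p of 1e-05. It was 0.178 for Ms4a2 (permutation p = 0.00012) and -0.178 for Kit (permutation p = 0.00019), and adjusted over all relations computed all 6 were at most 0.000434. In the 5 mouse-number blocks r was between 0.28 and 0.481 for Cpa3 and between 0.154 and 0.213 for Ms4a2, and in 5 of 5 blocks of either order it was above 0 for each of the 5 genes. With total count scaling the r of Kit was -0.0719, past the threshold no longer. Kit was above 0 in 1 of 5 mouse-number blocks (0.024) and in 0 of 5 library-number blocks. Inside the clusters without and with Y chromosome counts, r was 0.377 and 0.266 for Cpa3 and -0.201 and -0.129 for Kit. The mean of 8 mesothelial genes, Upk3b among them, gave r = 0.368 for Cpa3, 0.258 for Ms4a2 and -0.101 for Kit.

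Upk3b was not the only gene of another cell type that the proteases followed. Pdgfra, a receptor of adipocyte progenitors, had r = 0.342 with Cpa3, 0.328 with Cma1, 0.287 with Tpsb2 and 0.28 with Mcpt4 (each p = 1e-05 by permutation), 0.129 with Ms4a2 and -0.0477 with Kit. Kitl, the ligand of the Kit receptor, had r between 0.128 and 0.166 with the 5 others (permutation p from 0.00032 to 0.00532) and -0.0303 with Kit (permutation p = 0.512). Where Y chromosome counts were 0, the r of Kitl with these 5 was between 0.0489 and 0.0943 and passed the threshold for none of them (permutation p from 0.156 to 0.464), and elsewhere it was between 0.137 and 0.265. Lep, the adipocyte hormone leptin, was lower where Cpa3 and Cma1 were higher (r = -0.216 and -0.224, permutation p = 1e-05), and higher where Ms4a2 and Kit were higher (0.184 and 0.217, permutation p = 6e-05 and 1e-05). By Y chromosome counts, r with Lep was -0.139 where these were 0 and -0.0726 elsewhere for Cpa3, and -0.156 and -0.0797 for Cma1, with the latter of each pair short of the threshold (permutation p = 0.261 and 0.218). Adipoq, a marker of fat cells, had r = -0.229 with Kit (permutation p = 2e-05) and r between -0.0486 and 0.0726 with the other members (adjusted p from 0.158 to 0.826 by permutation). Spearman's rho was 0.107 for Cpa3, 0.116 for Mcpt4 and 0.123 for Cma1 (adjusted p = 0.0296, 0.0176 and 0.012 by permutation). Inside the clusters the signs were opposite, with r of 0.144, 0.186, 0.176 and 0.206 for Cpa3, Mcpt4, Cma1 and Tpsb2 where Y chromosome counts were 0, and of -0.151, -0.111, -0.126 and -0.128 elsewhere. The endothelial gene Pecam1 had r = 0.166 with Kit and -0.169 with Cpa3, but the latter was 0.021 with total count scaling, and by Y chromosome counts it was 0.0346 where these were 0 and -0.194 elsewhere. None of the members had a detectable relation with total count (r between -0.0235 and 0.0126).

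**Figure D4:**
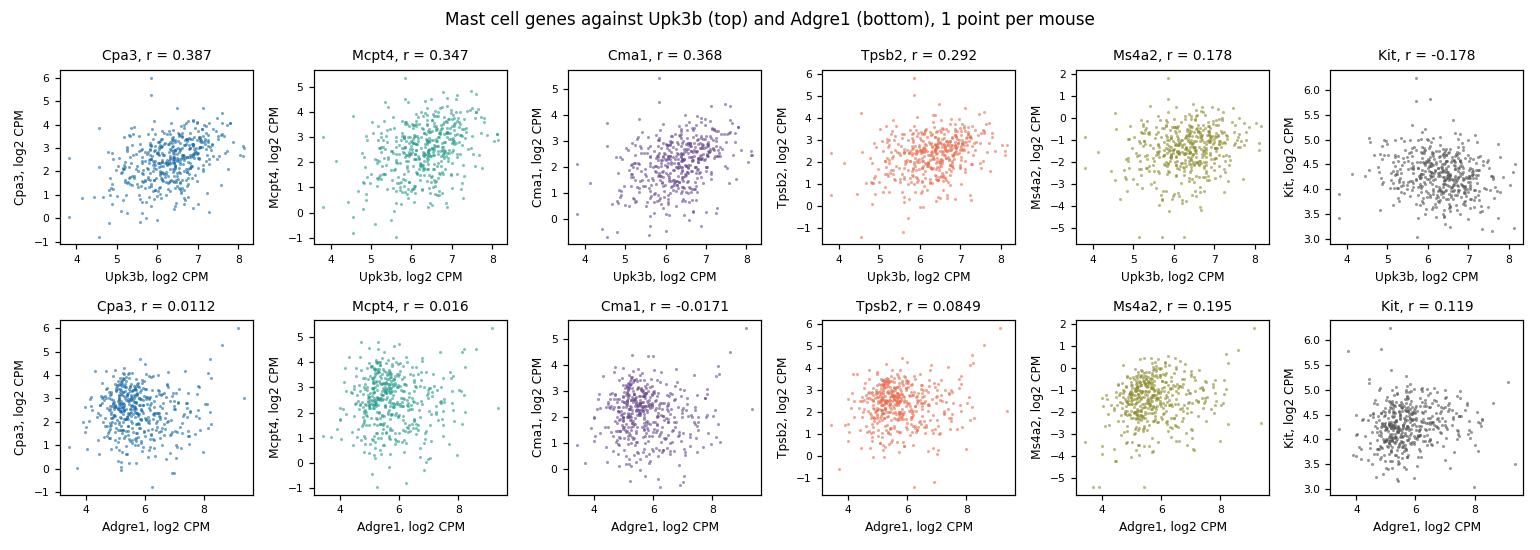
Each mast cell gene (y axes) against Upk3b (upper row, x axes) and Adgre1 (lower row, x axes), all in log2 CPM, 1 point per mouse, with Pearson's r over all mice in the titles. With Upk3b, r runs from 0.387 for Cpa3 to 0.178 for Ms4a2 and is -0.178 for Kit, and with Adgre1 it is between -0.0171 and 0.0849 for the 4 proteases, 0.195 for Ms4a2 and 0.119 for Kit.

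In edgeR 77.4% of all genes changed with Adgre1, with 34.4% rising. Of the members, 3 rose: Ms4a2 by 0.26 ± 0.050 log2 units per log2 unit of Adgre1 (adjusted p = 7.58e-07), Tpsb2 by 0.18 ± 0.041 (1.9e-05) and Cpa3 by 0.12 ± 0.043 (0.00809). Mcpt4, Cma1 and Kit had slopes of 0.07, 0.07 and 0.04 (adjusted p = 0.189, 0.111 and 0.0739). Without the library of DO088, high in both, the slope of Cpa3 was 0.04 (adjusted p = 0.449), that of Tpsb2 0.12 (0.012) and that of Ms4a2 0.20 (0.000273). Of the wider list 20 genes rose with Adgre1, among them Fcer1g at 0.85 ± 0.013, Syk at 0.68 ± 0.015, the tryptase Tpsab1 at 0.63 ± 0.063 and Srgn at 0.24 ± 0.011. The 3 that fell were Kitl, Slc18a2 and Gata2. In log2 CPM their r with Adgre1 was -0.203, -0.042 and -0.332. The slope of Slc18a2 on Adgre1 without DO032 and DO069, the libraries on which its other calls rest, is not given here. Genes of this list differed in what they followed. Fcer1g, Btk and Syk had r = 0.941, 0.925 and 0.901 with Adgre1, but -0.0086, -0.0041 and -0.0134 with Cpa3. Tpsab1 and Mrgprb1 had r = 0.309 and 0.0273 with Adgre1, and 0.420 and 0.844 with Cpa3.

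On the log2 scale, where single high libraries weigh less, r with Adgre1 was 0.0112 for Cpa3 (permutation p = 0.81), 0.016 for Mcpt4 (0.729), -0.0171 for Cma1 (0.71) and 0.0849 for Tpsb2 (0.0661). It was 0.195 for Ms4a2 (permutation p = 5e-05, adjusted 0.000131) and 0.119 for Kit (permutation p = 0.0103, adjusted 0.0157), and above 0 in 5 of 5 blocks of either order for these 2. With total count scaling r was 0.126 for Cpa3, 0.124 for Mcpt4, 0.102 for Cma1, 0.206 for Tpsb2 and 0.336 for Kit. Inside the clusters without and with Y chromosome counts the r of Cpa3 was 0.138 and 0.165, both above the pooled value. The same held for Mcpt4 (0.0708 and 0.159), Cma1 (0.106 and 0.128) and Tpsb2 (0.142 and 0.14). For Kit it was 0.024 without Y chromosome counts, short of the threshold (permutation p = 0.714), and 0.161 with them. In the edgeR fit with Xist and the Y chromosome genes as covariates, the slope on Adgre1 was 0.29 ± 0.047 for Cpa3 (adjusted p = 4.5e-09) and 0.22 to 0.26 for Mcpt4, Cma1, Tpsb2 and Ms4a2, against 0.04 for Kit (adjusted p = 0.0976).

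**Figure D5:**
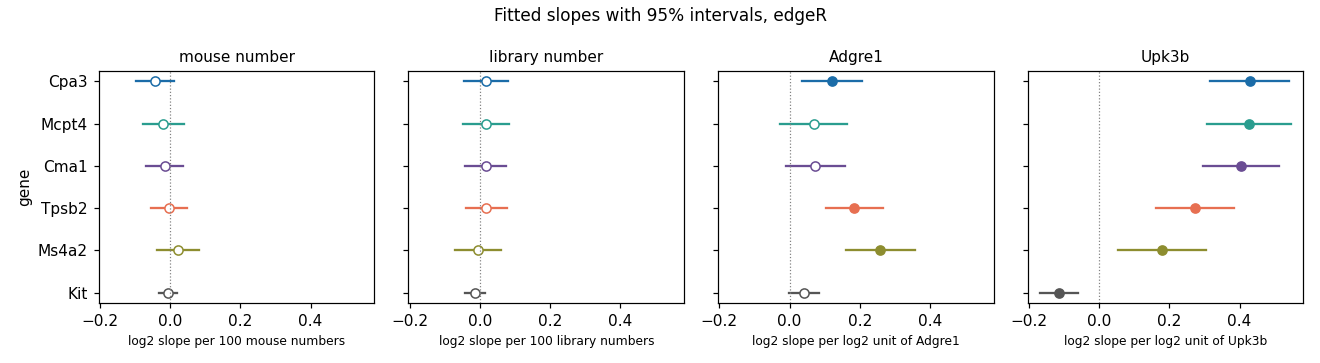
Log2 slope of each mast cell gene (rows) on mouse number, library number, Adgre1 and Upk3b (panels) from edgeR, with 95% intervals as lines. Filled points passed an adjusted p of 0.05, which 0 of 6 did for both numbers, 3 of 6 for Adgre1 and 6 of 6 for Upk3b, where Kit at -0.11 is the only point below 0.

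Markers of cells that could share the members' transcripts were checked. Basophils also carry the IgE receptor, and of 5 basophil markers 4 were in the table (Mcpt8 was not analysed here). The 3 past the filter had a median pairwise r of 0.204, and Fcer1a among them is also on the wider mast cell list. The basophil protease Prss34 had a median of 0.0486 CPM, and in DO088 it was at 10.2 CPM. The part of basophils in the members' values was not tested.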

How the data were processed

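Polyadenylated RNA of adipose tissue from 468 mice was sequenced in paired reads of 100 bases, 1 library per mouse. The authors aligned both read ends singly to a transcriptome of the founder strains and estimated expected counts per gene with EMASE, run by GBRS, on GRCm38 per the labels. Tool versions and strand handling were not given in the sources used here. Also deposited by the authors were log2-scale VST values (DESeq2), used only as an alternative. How much of the study's batch removal they hold is not stated. The deposited expected counts were whole within 1e-06 in 66.8% of values, since shared reads are divided between transcripts. No column of per-sample values was left unused.

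CPM and log2 CPM (prior count 2) come from expected counts left unrounded, scaled by the TMM factors of edgeR 4.0.16 (0.578 to 1.36, R 4.3.3). Slopes were fitted to counts rounded to whole numbers by the quasi-likelihood test of edgeR across the 18380 genes with at least 10 counts in at least 50% of libraries, with Benjamini-Hochberg adjustment over all tested genes and a threshold of 0.05. DESeq2 1.42.0, limma 3.58.1, other scalings, filters, caps and covariates served as alternatives. The edgeR fit was tested on simulated counts with known slopes on mouse number. These counts were drawn independently, without outlying libraries, so the simulation cannot speak to calls that rest on single libraries. Correlations used two-sided permutation tests of 100000 resamples, 105 relations in all. A gene used as covariate (Adgre1, Upk3b) was left out of its own fit. Of the 23180 identifiers, all were found in GENCODE M21, 99.2% at the same position. Promoters came from RefSeq (GRCm38.p6).

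The members and the gene lists were chosen with earlier results of these data known. The genes named are the members, the wider mast cell list, the reference genes Adgre1, Upk3b, Kitl, Pecam1, Pdgfra, Adipoq and Lep, the 10 genes that most resembled the mean of the members, the 5 that most resembled each member, and the markers of the cell types. Floors of 3 counts cover counting error only, since PCR copies are not independent molecules.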

Additional observations from a re-analysis of the deposited data

How the results depend on the processing

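The relations among Cpa3, Mcpt4, Cma1, Tpsb2 and Ms4a2 kept their direction and passed the threshold in every alternative tried, with r from 0.581 to 0.945, and the fitted slopes of all 6 members on Upk3b passed in every alternative, where 98 of 98 alternative values, counts over all genes included, kept their call. For mouse and library number 0 of the members was called in any alternative run, edgeR, DESeq2 and limma included. Directions turned mainly for values near 0, and the cause was not tested. The clusters by Y chromosome counts and the omission of DO088, DO032 and DO069 were alternatives chosen after seeing the data. No paired analysis was possible because the libraries form 1 group.

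With total count scaling, r with Adgre1 was 0.126 for Cpa3, 0.124 for Mcpt4, 0.102 for Cma1 and 0.206 for Tpsb2. The r of Kit was 0.0755 with Cpa3, 0.0558 with Mcpt4, 0.0489 with Cma1, 0.113 with Tpsb2, 0.182 with Ms4a2, -0.0719 with Upk3b, 0.208 with Kitl, 0.19 with Pdgfra and 0.00903 with total count. Under it the r with Pecam1 was 0.021 for Cpa3, 0.052 for Mcpt4, 0.0144 for Cma1 and 0.139 for Tpsb2, that of Ms4a2 with Adipoq was 0.0173, and the slope of Tpsb2 on mouse number was 0.00285. It split the genes called for mouse number into 2388 rising and 1496 falling (2086 and 2197 with TMM), those for library number into 44 and 19 (31 and 26), and those for Adgre1 into 10269 and 4072 (6314 and 7904).

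In the libraries without Y chromosome counts, r with Adgre1 was 0.138 for Cpa3, 0.106 for Cma1, 0.142 for Tpsb2 and 0.024 for Kit, and the slope of Kit on Adgre1 was -0.00437. The r of Kit was -0.153 with Cpa3, -0.14 with Mcpt4, -0.181 with Cma1, -0.135 with Tpsb2 and -0.0618 with Ms4a2. With Pecam1 it was 0.0346 for Cpa3, 0.0437 for Mcpt4, 0.00227 for Cma1 and 0.0836 for Tpsb2, with Adipoq 0.138 for Ms4a2, and with total count 0.0253 for Cpa3, 0.019 for Mcpt4 and 0.0323 for Tpsb2. In those with Y chromosome counts, r with Adgre1 was 0.165 for Cpa3, 0.159 for Mcpt4, 0.128 for Cma1 and 0.14 for Tpsb2. The r of Kit was 0.129 with Cpa3, 0.0761 with Mcpt4, 0.0991 with Cma1, 0.0889 with Tpsb2, 0.146 with Ms4a2, 0.0146 with Kitl, 0.00807 with Pdgfra and 0.0831 with total count. With Adipoq it was -0.151 for Cpa3, -0.111 for Mcpt4, -0.126 for Cma1 and -0.128 for Tpsb2, and for Ms4a2 it was -0.0487 with Pecam1 and -0.0219 with total count. In residuals from Xist and Y chromosome genes, r with Adgre1 was 0.159 for Cpa3, 0.126 for Mcpt4, 0.129 for Cma1 and 0.149 for Tpsb2, r with Adipoq was -0.0561, -0.00937, -0.0311 and -0.0259 in the same order, and that of Kit with total count was 0.000755.

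With Xist and the Y chromosome genes as covariates, 12.9% of genes were called for mouse number (23.3% without), with slopes of 0.00906 for Mcpt4, 0.0133 for Cma1 and 0.00145 for Tpsb2. With Adgre1 and Upk3b as covariates it was 11.6%, with 0.0135, 0.0192 and 0.0176. For library number (0.31%) 0.725% of genes were called with no filter, 0.473% with DESeq2, 0.0163% with capped counts, 0.174% without the shallowest 10% of libraries, 0.174% with mouse number and total count as covariates, 0.185% without DO032 and DO069 and 0 with limma (1003 genes at an unadjusted p under 0.05). With limma the slope on mouse number was 0.00195 for Tpsb2 and 0.00375 for Kit, on library number 0.00665 for Ms4a2 and on Adgre1 -0.0176 for Cma1. With capped counts the slope on mouse number was 0.0135 for Tpsb2 and 0.00389 for Kit.

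Without DO088, the slope on mouse number was 0.000892 for Cma1 and 0.0168 for Tpsb2, that on Adgre1 was -0.00594 for Cma1, and r with Adgre1 was -0.0194 for Cpa3 and -0.00669 for Mcpt4. Without DO032 and DO069 the slope of Kit on mouse number was 0.00696. Without the 2 libraries farthest from the median, r with Adgre1 was -0.0248 for Cpa3 and -0.00416 for Mcpt4, and r of Ms4a2 with total count was -0.0141. Without the shallowest 10% of libraries, r was -0.00999 for Cpa3 with Adgre1 and 0.017 for Kit with total count, and the slope of Ms4a2 on library number was 0.00119. With the deposited VST values, r was 0.106 for Tpsb2 with Adgre1, -0.00862 for Tpsb2 with Adipoq and -0.015 for Ms4a2 with total count, which was -0.0117 with a prior count of 10. Among the relations with Kitl, Lep, Pdgfra, Pecam1 and Adipoq, 20 alternatives lost and 10 gained a call. Depth limits Ms4a2, with a median of 30 counts.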
